A study of Arabidopsis thaliana with 5 samples.

Results

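Joins between nuclear chromosomes are structural variant calls that place an end on each of a pair of different chromosomes among the 5 chromosomes of Arabidopsis thaliana. The unfiltered lists of 5 long-read libraries held 141 such calls, with 282 breakpoints, among 634 calls of all kinds. Every row of these lists had a type, so none was dropped. A call counted as ribosomal when an end lay under 20 kb on chromosome 2 and the other between 14.18 and 14.22 Mb on chromosome 3. There were 73 ribosomal joins, and the remaining 68 are called other joins. All libraries came from ecotype Col-0 plants that were picked as mutants in work with irradiated seeds. Antarctic mutants 1 and 2 were plants of the M0 generation, frozen whole, whose seeds had flown for 30 days at about 35 km over Antarctica. They were 44 and 45 days old. The Antarctic pool joined 6 further frozen M0 plants of that flight in 1 library, all 21 days old but 1 of 17 days. Simulated-radiation mutants 4 and 5 were M1 plants of 45 days, grown on in soil and sampled as a fresh single leaf. Their exposure had used beams of hydrogen at 10.62 rad, helium at 3.165 rad, oxygen at 1.08 rad and titanium at 0.735 rad. Exposure, generation, growth and sampled material therefore cannot be told apart, and no unirradiated library was analysed here. Each single-plant library is 1 plant, so differences between exposures rest on 2 plants each. The lists give no sequencing depth, so a join that is not listed in a library may have had too few reads.

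Ribosomal RNA genes of plants lie in long tandem arrays, the nucleolus organizer regions. In Arabidopsis these arrays sit at the upper ends of chromosomes 2 and 4, and each unit encodes the rRNAs of the small and large ribosomal subunits, separated by spacers. The reference assembly holds single units or parts of units in place of the arrays, so reads from many copies align to few places. A translocation joins sequence of different chromosomes, and can follow the faulty repair of broken DNA or recombination between like sequences.

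The label of the ribosomal class was checked against the RefSeq gene table of assembly TAIR10.1. Both windows held an rRNA gene of 1808 bp and one of 164 bp, which are AT2G01010 and AT2G01020 on chromosome 2 and AT3G41768 and AT3G41979 on chromosome 3. Within its wide windows the class filled little space. The chromosome 2 ends ran from 1000 to 10372, far inside the limit of 20 kb, and the chromosome 3 ends from 14191795 to 14205201. Only 6 of the 73 chromosome 2 ends and 5 of the 73 chromosome 3 ends lay inside an annotated rRNA gene, in each case the longer one. The table annotated no further rRNA gene in either window. Ends in rRNA sequence that it annotates otherwise, or not at all, were therefore not counted. No annotated gene covered 31 of the chromosome 2 ends and 42 of the chromosome 3 ends. The rest lay in noncoding or protein-coding annotations such as AT2G01008, which held 14 of the chromosome 2 ends, and AT3G06365, which held 15 of the chromosome 3 ends.

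The ribosomal joins followed a strict geometry. The shift of a join is used here for the distance between its chromosome 3 and chromosome 2 positions, less the distance between the longer rRNA genes of both loci. A shift of 0 bp means that both ends lie at the same place of the ribosomal unit. In 37 of the 73 joins the shift was within 100 bp of 0, in 20 within 10 bp, and in 4 exactly 0. These aligned joins were scattered over the unit, with chromosome 2 ends anywhere from 1000 to 10372. The remaining 36 joins were shifted, and all of them had their chromosome 2 end at an edge of the segment. Of these 36, 15 lay at or below position 1400 and 21 at or above 9200. Between these edges lay 23 joins, all aligned.

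The shifted joins fell into 7 narrow groups. The most frequent group, 13 joins from all 5 libraries, had shifts from -10414 to -10033 bp, and joined the upper edge of the chromosome 2 segment to 14192868 to 14194270 on chromosome 3. Its counterpart on the opposite side, 5 joins with shifts from 10155 to 10230 bp, joined the lower edge of the segment to 14205192 to 14205201. Groups of 4 joins each lay at -12497 to -12453 bp and at -9234 to -9052 bp. There were 5 joins at -2749 to -2643 bp, 1 from each library, 3 joins at -1178 to -851 bp and 2 joins at 9210 to 9283 bp. The groups at -10.4 and 10.2 kb are thus displaced by a similar distance in opposite directions.

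**Figure D1:**
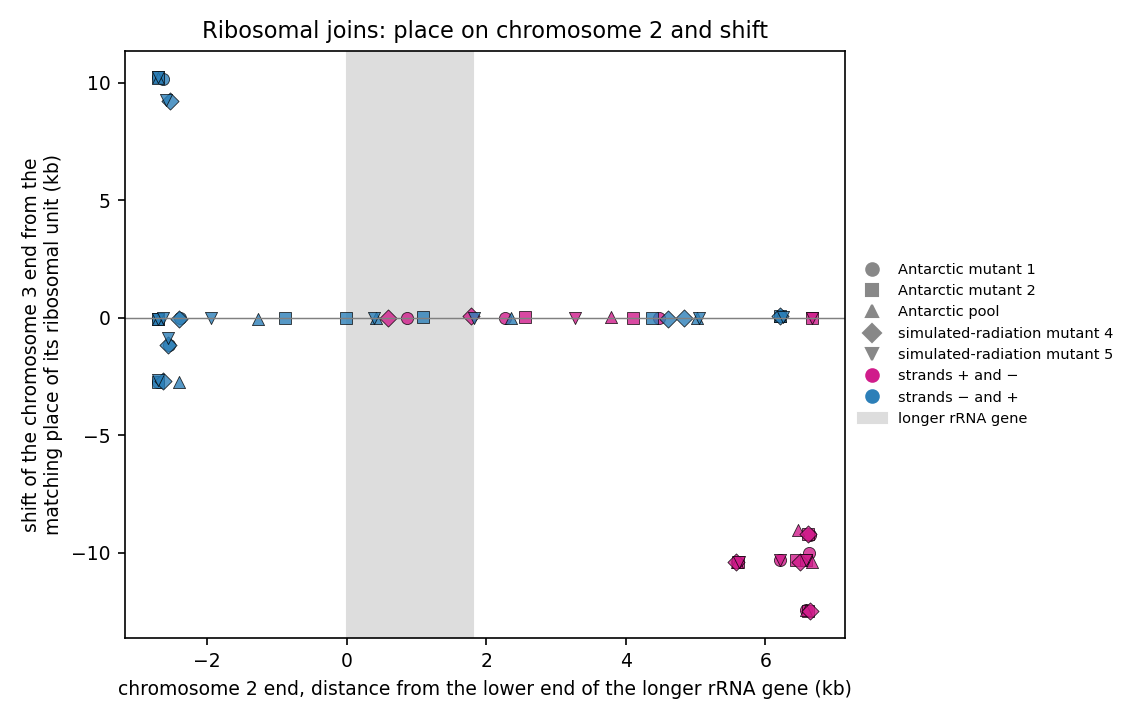
Each point is 1 of the 73 ribosomal joins. The horizontal axis gives the distance of the chromosome 2 end from the lower end of the longer rRNA gene (kb), the vertical axis gives the shift (kb), marker shapes are libraries, and colours are strand codes. Aligned joins lie along 0 over the whole width, while the 36 shifted joins stand only at the left and right edges.

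Strand codes went with place. Within single chromosomes, the caller wrote + and - for all 37 nuclear deletions, - and + for all 24 duplications, and equal signs for all 25 inversions, so unlike signs mark a join that keeps the direction of both chromosomes. All 73 ribosomal joins had unlike signs, 32 with + and - and 41 with - and +. All 22 joins with a chromosome 2 end at or below 1400 had - and +. Of the 28 joins at or above 9200, 23 had + and -. The 5 exceptions were aligned joins, 1 in each library, at 9910 and 14203967 in Antarctic mutants 1 and 2, the Antarctic pool and simulated-radiation mutant 4, and at 9965 and 14203966 in simulated-radiation mutant 5. Between the edges both codes occurred, 9 joins with + and - and 14 with - and +.

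In that middle stretch libraries could differ in strand code at nearly the same place. Simulated-radiation mutant 4 listed a join of 5495 on chromosome 2 to 14199522 on chromosome 3 with + and -, supported by 77 reads. Simulated-radiation mutant 5 listed one of 5539 to 14199507 with - and +, supported by 61 reads. Of the 37 aligned joins, 22 had a partner of unlike strand codes in another library within 500 bp at both ends, and 33 had one of like codes. These 22 were not confined to the middle stretch. They included joins at the upper edge, such as those at 9910 in Antarctic mutant 1 and at 10372 in simulated-radiation mutant 5. None of the 36 shifted joins had a partner of unlike codes, and all 36 had one of like codes. The lack of unlike codes follows from place, since the shifted joins at an edge all had the same code.

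Recurrence was the rule in the ribosomal class. With both ends within 500 bp as the condition for a partner, 72 of the 73 ribosomal joins had one in another library, and 38 had one in each of the 4 other libraries. The exception was the join of 6979 to 14200950 in simulated-radiation mutant 5, with 31 reads. Over all 634 calls of the unfiltered lists, 42.0% had such a partner, over all 287 translocation calls, organelle joins included, 49.8%, and over calls within 1 nuclear chromosome 17.7%. Part of this share is built in, because the class is defined by a pair of narrow windows and partners are easier to find in a crowded place.

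Under a tighter condition, calls of the same strand codes were linked where both ends lay within 50 bp, and links could chain from call to call. This left 13 junctions, of 48 distinct ones in the ribosomal class, that were listed in more than 1 library. They took up 38 of the 73 ribosomal calls. No junction of the 68 other joins was listed in more than 1 library under this condition. It was not applied to the remaining calls of the lists. The junction of 9308 on chromosome 2 and 14192868 on chromosome 3 was the only one in all 5 libraries. It had 26 and 27 reads in Antarctic mutants 1 and 2, 5 in the Antarctic pool, and 11 and 17 in simulated-radiation mutants 4 and 5. Its positions differed by no more than 34 bp between libraries.

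There were 4 junctions in 4 libraries each, 1 of them only through such a chain. The junction of 9910 and 14203967 had the same positions to the base in Antarctic mutant 1 with 76 reads, Antarctic mutant 2 with 36, the Antarctic pool with 22 and simulated-radiation mutant 4 with 76. The call at 9965 in simulated-radiation mutant 5, with 6 reads, lay just outside the 50 bp of every call of this junction. The junction of 1000 and 14194907 was equal to the base in Antarctic mutant 1 with 52 reads, Antarctic mutant 2 with 22, the Antarctic pool with 8 and simulated-radiation mutant 5 with 27. No call of either junction had a usable first position, so the agreement to the base rests on best positions alone. At 1000 and 14194907, the calls of Antarctic mutant 2 and the Antarctic pool were labelled imprecise. Position 1000 was the chromosome 2 end of 10 ribosomal joins, from every library but simulated-radiation mutant 4. It was also the lowest chromosome 2 end of the class, and why ends gathered there was not tested.

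A further junction of this kind, 1000 to 14205201, had 17 and 24 reads in Antarctic mutants 1 and 2, 11 in the Antarctic pool and 19 in simulated-radiation mutant 5. The last, near 10287 and 14191805, was the chained one, with chromosome 2 ends spread over 53 bp. It had few reads wherever it was listed, 7 in each of Antarctic mutants 1 and 2 and 5 each in the Antarctic pool and simulated-radiation mutant 4. All 5 of these widely shared junctions were listed after both exposures. With the Antarctic pool included, the Antarctic and simulated-radiation libraries overlapped in reads for each of them.

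**Figure D2:**
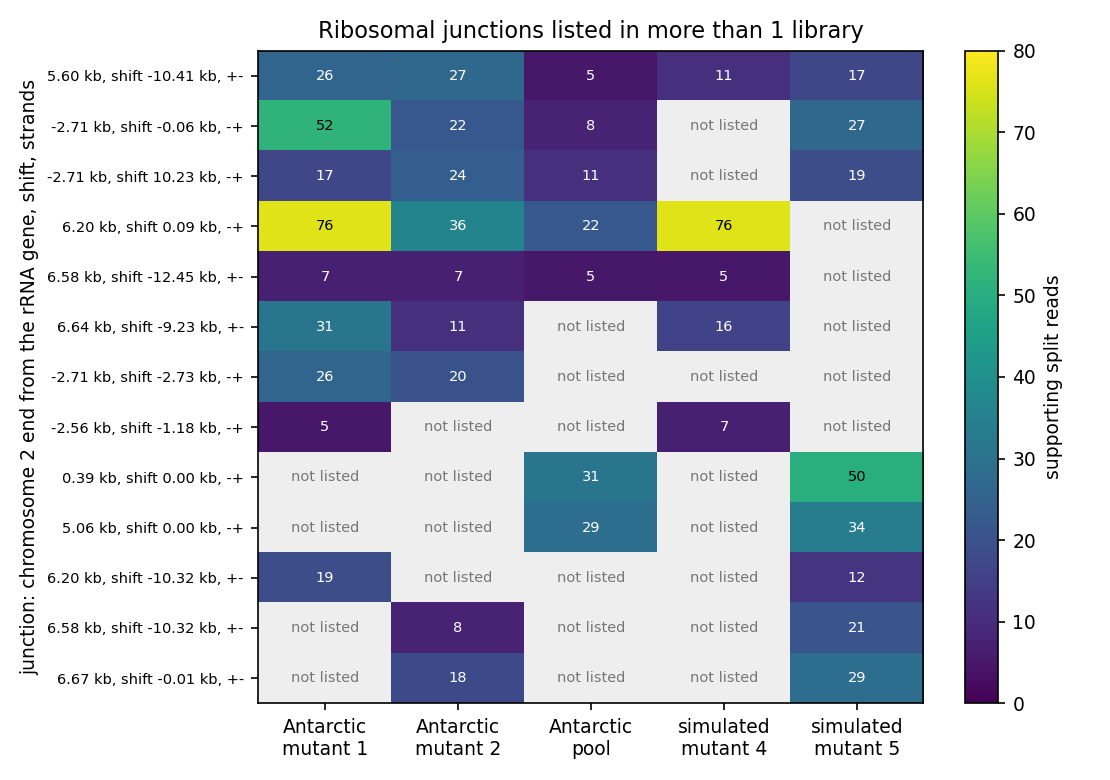
Rows are the 13 ribosomal junctions listed in more than 1 library, named by the distance of their chromosome 2 end from the lower end of the longer rRNA gene, their shift and their strand codes. Columns are libraries, and numbers and colours give the supporting split reads. The top row is listed in all 5 libraries and the next 4 rows in 4 each.

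Read support was higher for ribosomal than for other joins in every library. Supporting split reads ran from 5 to 77 in ribosomal joins, with a median of 17, and from 5 to 27 in other joins, with a median of 8. The library medians were 17 reads for ribosomal and 11 for other joins in Antarctic mutant 1, 19 and 7 in Antarctic mutant 2, and 13 and 10.5 in the Antarctic pool. They were 10 and 9 in simulated-radiation mutant 4, and 19.5 and 7 in simulated-radiation mutant 5. The mean of the library medians was 15.7 ± 4.09 reads for ribosomal joins and 8.90 ± 1.88 for other joins (SD, n = 5). The mean difference of 6.80 ± 5.30 reads (SD, n = 5), positive in 5 of 5 libraries, gave p = 0.0625 in an exact two-sided sign-flip permutation test, the smallest p that 5 libraries can give (adjusted p = 0.0781, Benjamini-Hochberg over 5 comparisons of the classes). It therefore cannot pass 0.05 in this design. Among precise calls alone the mean difference was 16.2 reads (exact sign-flip permutation p = 0.125), and it was not positive in every library. That setting rests on few calls, such as 2 precise ribosomal joins in simulated-radiation mutant 4.

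The largest counts belonged to aligned joins. Their median was 27 reads, against 11 in shifted joins, which did not exceed 32 reads. The call with most reads was aligned in every library. It stood at 9910 and 14203967 with 76 reads in Antarctic mutant 1, at 6257 and 14200259 with 59 reads in Antarctic mutant 2, and at 2431 and 14196363 with 60 reads in the Antarctic pool. It had 77 reads in simulated-radiation mutant 4 and 61 in simulated-radiation mutant 5, at the nearby places named above. The median of aligned joins exceeded that of shifted joins in each library, with 34.5 against 17 reads in Antarctic mutant 1, 20 against 11 in Antarctic mutant 2 and 28 against 8.5 in the Antarctic pool. The corresponding medians were 19.5 against 10 in simulated-radiation mutant 4 and 29 against 17 in simulated-radiation mutant 5. The division by shift was made after the values were seen, so these medians are given without a test.

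**Figure D3:**
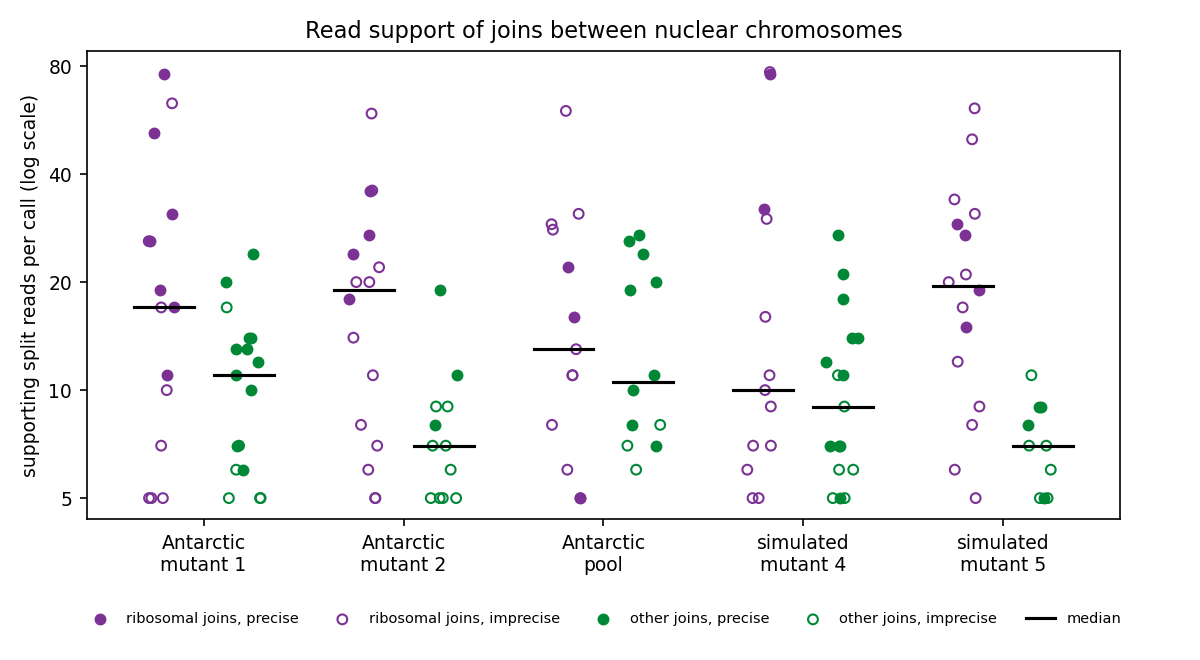
Each point is a call, with its supporting split reads on a log axis, by library and class. Filled points are calls the caller labelled precise, open points imprecise, and bars are medians. Every call above 27 reads is ribosomal, and many of the highest ribosomal calls are open.

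Precision went with reads in both classes, but imprecise ribosomal joins were common also at many reads. Precise ribosomal joins had a median of 25 reads and imprecise ones of 11, and precise other joins had a median of 11.5 reads and imprecise ones of 6. The caller labelled 20 of the 73 ribosomal joins and 38 of the 68 other joins precise, where 35.8% of all 634 calls, 30.3% of translocation calls and 37.9% of calls within 1 nuclear chromosome had this label. Among joins with at least 10 reads, 19 of 50 ribosomal and 25 of 28 other joins were precise. Below 10 reads, 1 of 23 ribosomal and 13 of 40 other joins were. The share of precise joins averaged 27.0% ± 11.7 for ribosomal and 53.9% ± 20.7 for other joins over the libraries (SD, n = 5), a difference of -26.9 percentage points (exact sign-flip permutation p = 0.125, adjusted p = 0.125). It was negative in 4 of 5 libraries and 0 in Antarctic mutant 2, and it was -44.2 percentage points among calls with at least 8 reads. The lists hold both a first and a best position per end, and the distance between them shows how loosely an end is placed. Its median was 48 bp in 35 imprecise and 1.5 bp in 7 precise ribosomal joins with a usable first position, and 8 bp in imprecise and 1 bp in precise other joins. The highest was 931 bp, in an imprecise ribosomal join.

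The classes also differed in direction, recurrence and fate in the filtered lists. Both ends had the same strand sign in none of the ribosomal joins, against 53.8% ± 16.1 of the other joins per library (SD, n = 5). A partner in another library was found for 98.8% ± 2.80 of ribosomal joins and 8.86% ± 6.29 of other joins (SD, n = 5). The authors' filtered lists held none of the ribosomal joins and 91.6% ± 4.89 of the other joins (SD, n = 5), where 45.9% of all 634 calls, 21.6% of translocation calls and 98.7% of calls within 1 nuclear chromosome were kept. The test of the partner shares counts among the 5 comparisons behind the adjusted p. No conclusion is drawn from it, since the positions that define the classes also enter the matching. The differences in strand signs and in the filtered lists each had 1 direction in 5 of 5 libraries, with an exact sign-flip permutation p of 0.0625 and an adjusted p of 0.0781, so neither passed 0.05. How the filter chose its calls is not stated. Among other joins it left out only calls with an end in a ribosomal window. The filter outcome thus largely followed the places that define the classes, and no conclusion is drawn from its p. The tests of partner shares and of the filter also make the adjusted p of reads and strand signs smaller than without them. With calls of at least 10 reads alone, the difference in like strand signs was -34.4 percentage points (exact sign-flip permutation p = 0.125). Only 1 other join of simulated-radiation mutant 5 then remained, with unlike signs, and 2 of Antarctic mutant 2. The direction therefore did not hold in every library.

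**Figure D4:**
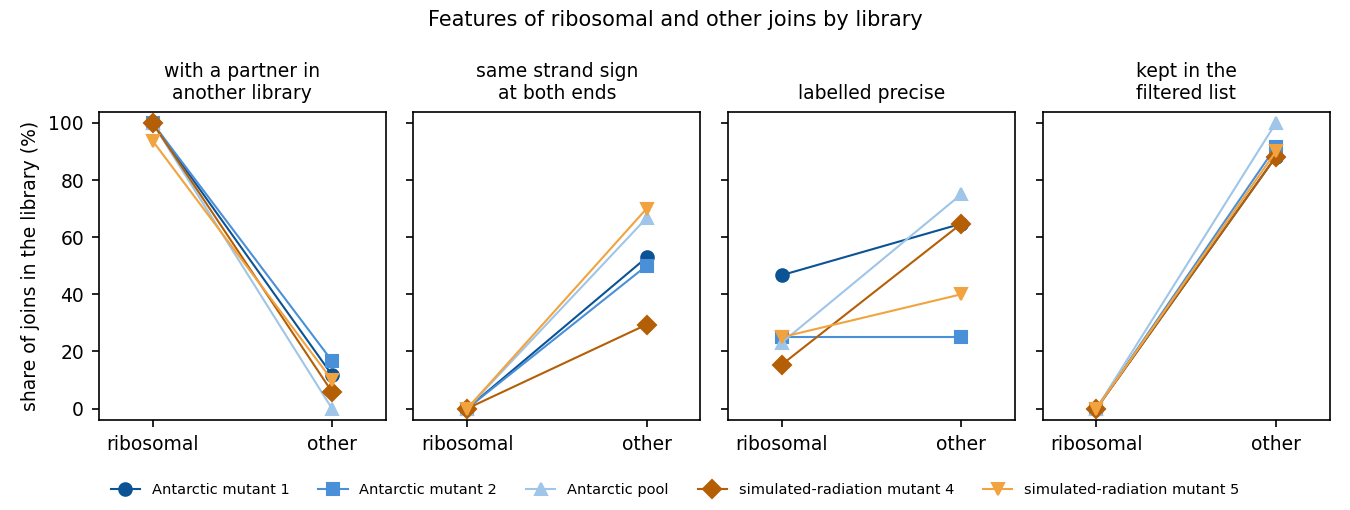
Shares (%) of ribosomal and other joins per library, with lines connecting the classes of a library. From left to right, the panels give joins with a partner in another library, with the same strand sign at both ends, labelled precise, and kept in the filtered list. The classes overlap only in the panel of precise joins.

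The 68 other joins were spread over all 10 pairs of chromosomes. Chromosomes 1 and 2 were joined 12 times, 2 and 3 in 11 calls, 2 and 5 in 9, 1 and 5 in 8, and 1 and 3 in 7. The rarest pair was 3 and 4 with 1 call, in the Antarctic pool. Of their 136 ends, 36 lay on chromosome 2, 32 on chromosome 1, 28 on chromosome 5, 24 on chromosome 3 and 16 on chromosome 4. These counts are not corrected for the length of the chromosomes. The 4 strand codes were all present, with 15 joins of + and -, 18 of - and +, 15 of + and + and 20 of - and -. Equal signs, the code of inverted joins, made up 9 of 17 joins in Antarctic mutant 1, 6 of 12 in Antarctic mutant 2, 8 of 12 in the Antarctic pool, 5 of 17 in simulated-radiation mutant 4 and 7 of 10 in simulated-radiation mutant 5.

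**Figure D5:**
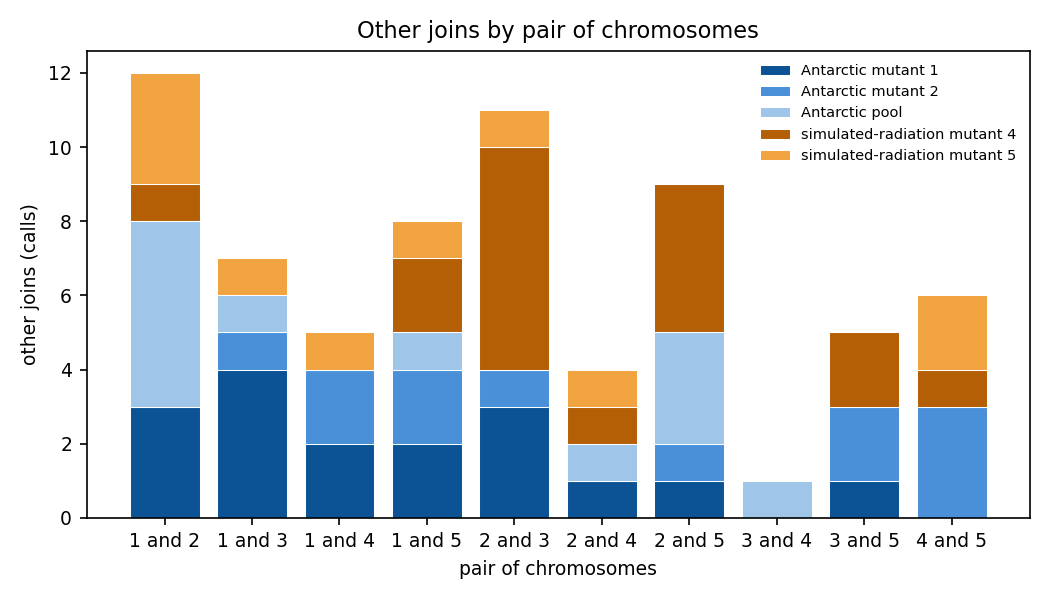
Number of other joins for each of the 10 pairs of chromosomes, stacked by library. The pair 1 and 2 leads with 12 calls, and 6 of the 11 calls between chromosomes 2 and 3 come from simulated-radiation mutant 4.

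The pair of chromosomes 2 and 3 owed much of its number to the ribosomal loci. Of the other joins, 7 had 1 end in a ribosomal window and the other end elsewhere, and all 7 joined chromosome 2 to chromosome 3, so that 4 joins of this pair were left without them. The filtered lists held 1 of these 7 joins, and all 61 other joins that touched neither window. The ribosomal joins and the other 6 of these calls were thus the only joins between nuclear chromosomes that the filtered lists left out.

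A single locus accounted for 4 of the 7 joins. It linked AT2G16586, an annotated protein-coding gene of chromosome 2, to the ribosomal window of chromosome 3 in or beside the microRNA gene MIR5642a, with strand codes - and + each time. Antarctic mutant 1 listed it at 7191103 and 14197038 with 17 reads, and Antarctic mutant 2 at 7191309 and 14197262 with 9 reads. Simulated-radiation mutant 4 had it at 7191014 and 14196917 with 9 reads, and simulated-radiation mutant 5 at 7191184 and 14197133 with 11 reads. The call was therefore listed in all 4 single plants, the Antarctic pool did not list it, and the exposures overlapped in reads. The positions varied over 295 bp on chromosome 2 and 345 bp on chromosome 3, while the distance between the ends of a join varied by 50 bp, from 7005903 to 7005953. The ends thus slid together, like those of the aligned ribosomal joins. All 4 calls were labelled imprecise. In simulated-radiation mutant 5 this was the other join with most reads.

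The other 3 joins with a ribosomal end were each listed once. Antarctic mutant 1 joined 6777 on chromosome 2 to 12603968 on chromosome 3, in the pseudogene AT3G30844, with 6 reads. Simulated-radiation mutant 4 joined 3216 on chromosome 2 to 11143280 on chromosome 3, in the pseudogene AT3G29175, with 5 reads. The same plant joined 13208630 on chromosome 2, in AT2G31040, to 14203107 on chromosome 3 with 7 reads. AT2G31040 is CGL160, a gene conserved in the green lineage that acts in the assembly of the chloroplast ATP synthase. This last join was labelled precise and was the one that the filtered list kept.

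Outside the ribosomal windows, 1 pair of plants listed calls close to each other at both ends. Antarctic mutant 1 listed a join of 11792992 on chromosome 1 to 18491692 on chromosome 5 with strands - and - and 6 reads. Antarctic mutant 2 listed one of 11793332 to 18491325 with strands + and + and 5 reads. The ends lay in the same pseudogenes, AT1G32590 and AT5G45605, and were 340 bp apart on chromosome 1 and 367 bp on chromosome 5. The calls therefore match within 500 bp, but only by their best positions. Their first positions were 1839 and 1841 bp apart. Both calls were labelled imprecise, both were in the filtered lists, and their strand codes were opposite. With this pair and the 4 joins at AT2G16586, 6 of the 68 other joins had a partner in another library, and no other 2 other joins lay within 10 kb of each other at both ends.

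By annotation, 62 of the 136 ends of other joins lay in protein-coding genes, 24 in pseudogenes, 7 in noncoding RNA genes and 43 in no annotated gene. These counts were not compared with the share of the genome that each annotation covers. At least 1 end was in a protein-coding gene in 51 of the 68 joins. A single such end with no gene at the other was the most common combination, with 27 joins, and 6 joins linked pseudogenes at both ends. Genes that keep the copy number or silencing of ribosomal DNA, such as FAS1 and HDA6, were looked up as a fixed list of 6 genes. No end of any of the 141 joins lay in 1 of these 6 genes. With so few genes, no conclusion is drawn from this.

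Both ends were in protein-coding genes in 11 other joins, 2 in Antarctic mutant 1, 1 in Antarctic mutant 2, none in the Antarctic pool, 5 in simulated-radiation mutant 4 and 3 in simulated-radiation mutant 5. Their reads ran from 5 to 21 with a median of 6, and the remaining other joins had a median of 9. Equal strand signs were found in 6 of the 11. The join with most reads, 21 in simulated-radiation mutant 4, linked 10837816 on chromosome 1 in AT1G30590 to 11576468 on chromosome 2 in SE, or SERRATE, a protein of microRNA processing, with strands - and +.

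Among the Antarctic plants, mutant 1 had a join of ATS1, a plastid glycerol-3-phosphate acyltransferase, to the transcription factor gene MYB2 with strands - and - and 10 reads, at 11603361 on chromosome 1 and 19376169 on chromosome 2. It also joined AT1G65270 to PLSP1, a plastidic signal peptidase, at 24244110 on chromosome 1 and 8971790 on chromosome 3, with strands - and + and 12 reads.

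In simulated-radiation mutant 4, VLN4, a villin that bundles actin, was joined at 14757970 on chromosome 4 to AT5G53620 at 21781913 on chromosome 5 with 11 reads. The small GTPase gene ARA4 was joined at 17929844 on chromosome 2 to AT5G05800 at 1743948 on chromosome 5 with 5 reads. AKR2B, an ankyrin repeat protein that guides proteins to the chloroplast envelope, was joined at 7556777 on chromosome 2 to AT4G02220 at 978230 on chromosome 4 with 5 reads. The plant also had a join of AT2G05185 to AT5G22608 with 6 reads, and this and the AKR2B join were labelled imprecise.

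The 3 joins of simulated-radiation mutant 5 had 5 reads each and all carried strands - and -. Of these, 1 linked TPP2, a tripeptidyl peptidase, at 11162689 on chromosome 4 to AUG3, a subunit of the augmin complex of microtubule branching, at 19665952 on chromosome 5. Another linked AT4G16150 at 9152640 on chromosome 4 to AT5G53010 at 21489156 on chromosome 5, and the last linked AT1G24380 to AT4G10230. The AT4G16150 join alone was labelled precise.

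The other joins with most reads in their libraries each had a protein-coding gene at 1 end only, and all but 1 were precise. They had 24 reads in Antarctic mutant 1, with strands - and - between AT2G07290 and a gene-free end on chromosome 4, and 19 in Antarctic mutant 2, with strands - and - between AT4G04670 and a gene-free end on chromosome 5. In the Antarctic pool, 27 reads joined the pyruvate dehydrogenase gene PDH-E1 BETA on chromosome 1 to overlapping pseudogenes, AT5G32690 and AT5G32825, on chromosome 5 with strands + and -. In simulated-radiation mutant 4, 27 reads joined the pseudogene AT3G33006 on chromosome 3 to AT5G67630 on chromosome 5 with strands + and -. The imprecise one was the AT2G16586 join, which led in simulated-radiation mutant 5 with 11 reads.

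The exposures were compared for whether their plants differed in their number of joins. Ribosomal joins numbered 15 and 16 in Antarctic mutants 1 and 2, against 13 and 16 in simulated-radiation mutants 4 and 5. The mean was 15.5 ± 0.707 in Antarctic and 14.5 ± 2.12 in simulated-radiation plants (SD, n = 2 each), a difference of 1.00 join (exact permutation p = 1). Other joins numbered 17 and 12 in the Antarctic plants, against 17 and 10 in the simulated-radiation plants. Their mean was 14.5 ± 3.54 in Antarctic and 13.5 ± 4.95 in simulated-radiation plants (SD, n = 2 each), again a difference of 1.00 join (exact permutation p = 1, adjusted p = 1 over both classes). The groups overlapped in both classes, and 2 against 2 plants cannot give a p below 0.333. The Antarctic pool, with 6 plants, listed 13 ribosomal and 12 other joins, within the range of the single plants. With the pool among the Antarctic libraries the difference was 0.167 in both classes, and with precise calls alone it was 2.5 for ribosomal and -0.5 for other joins. The ribosomal difference was -0.5 without mutant 4, 0.5 without mutant 2 and 2.5 without mutant 5. The difference in other joins was -1.5 without mutant 1, -2.5 without mutant 5, 3.5 without mutant 2 and 4.5 without mutant 4.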

How the data were processed

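Whole-genome DNA of 10 plants was sequenced in 5 PacBio Sequel libraries with inserts of about 10 kb. NGMLR aligned the reads and Sniffles made the calls, per the series' design text, on build TAIR10, per the submitters' processing notes. Program settings, and how the filter chose its calls, are not stated in these sources. The authors deposited 2 lists per library, 1 unfiltered and 1 filtered, with the count of supporting split reads of each call. The count was used unnormalized, and no call had fewer than 5 reads.

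Best positions were used, because the first position columns held placeholders in 31 ribosomal rows. They are given exactly as deposited, with a start of numbering (0 or 1) that is not known. The bases at the joins were not analysed here. Calls were matched across unfiltered lists by type, chromosomes and both ends within 500 bp. Gene names and the distance between the rRNA genes came from the RefSeq table of TAIR10.1, whose name differs from TAIR10, so gene overlaps assume equal positions. None of its coordinates is printed.

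Class features were reduced to 1 value per library and tested by exact two-sided sign-flip permutation over 5 libraries, and counts by exact permutation of single plants (Python 3.11.15, pandas 2.3.3, numpy 2.4.6). Matching was tested on simulated calls at places far apart, which could not show false matches in a crowded place such as the ribosomal loci. Alternatives were read minimums of 8 and 10, other windows, precise calls, repeat calls counted once, and libraries left out. Named genes were those of other joins with both ends in protein-coding genes, of joins close to another at both ends, of the join with most reads per library, and of a fixed list of ribosomal DNA genes. Another list and 1 named join are not reported here. The members and lists were chosen with earlier results of these data known. The 50 bp junctions, the shift groups (split at gaps over 500 bp), the edges at 1400 and 9200 and the 100 bp limit for aligned joins were set after their values were seen.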

Additional observations from a re-analysis of the deposited data

How the results depend on the processing

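Of 80 alternative values, those of the partner shares included, 76 kept their direction and side of 0.05. No value passed 0.05 in any setting, and with 5 libraries or 4 plants none could. The 4 reversals all concern counts by exposure. For other joins, precise calls alone gave a difference of -0.5 between Antarctic and simulated-radiation plants. With 1 library left out, the difference ran from -2.5 to 4.5 for other joins and from -0.5 to 2.5 for ribosomal joins. With libraries left out in the same way, the median reads of ribosomal minus other joins ran from 5.38 to 8.25, the share with a partner from 85.8 to 89.5 percentage points, the share of like strand signs from -59.9 to -49.8, the share of precise calls from -33.6 to -20.6 and the share kept by the filter from -92.5 to -89.5. The difference in shares with a partner was 72.1 with a window of 100 bp and 91.1 with one of 1000 or 2000 bp. It was 88.7 when like strand codes were also required, a setting chosen after seeing the data. Wider ribosomal windows changed no value. Counting repeat calls once dropped 9 ribosomal joins and no other join. The comparison of partners within the filtered lists gave no value, because these hold no ribosomal join. No paired analysis was possible because the exposures share no replicate numbers. The reads of a call depend on a depth that is not known here.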

Other observations

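Ends of unrelated other joins lay close together at a pair of further places, named here after their values were seen. In the Antarctic pool, ends of separate joins lay 9300 bp apart on chromosome 2, at 8315547 in SLP3 (AT2G19170), a subtilisin-like protease gene, with 20 reads, and at 8324847 in the neighbouring gene AT2G19180 with 11 reads. The end in SLP3 was joined to chromosome 4 and the end in AT2G19180 to chromosome 1. On chromosome 1, an end of Antarctic mutant 1 at 24244110 in AT1G65270 and an end of simulated-radiation mutant 5 at 24245989 in AT1G65280 lay 1879 bp apart. The Antarctic end had 12 reads and was joined to chromosome 3, and the simulated-radiation end had 9 reads and was joined to chromosome 2.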
